A study of Mus musculus with 34 samples.

Results

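A set of 10 genes was followed across soleus and plantaris of trained and sedentary mice at 2 ages: the endothelial markers Pecam1, Cdh5, Cldn5, Emcn, Esam, Tie1 and Egfl7, with Rbp7, Tjp1 and Mecom. They are 10 of the 23011 genes in the deposited table, found by their gene symbols, and all 10 passed the filter on low counts in every comparison. Measured values took part in the choice. Tjp1 and Mecom were chosen by their higher level after training in plantaris at 24 months, and Rbp7 was chosen by its lower level at 24 months, so the values of those contrasts are given as descriptions with no test.

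Whole-muscle RNA of female mice was sequenced in 34 libraries that fall into 8 groups. The trained groups had 8 weeks of PoWeR, voluntary running on a wheel with progressively added weight, and the sedentary groups were of matched age. The groups were soleus at 24 months (aged) after PoWeR (4 libraries) and sedentary (5), soleus at 6 months (young) after PoWeR (4) and sedentary (4), plantaris at 24 months after PoWeR (4) and sedentary (5), and libraries labelled plantaris at 6 months after PoWeR (4) and sedentary (4). All mice were fasted overnight before death, and the wheels of the PoWeR mice were locked for 24 h. The labels give no strain, and they leave unsaid whether each library is 1 animal or a pool, so p-values measure the spread between these libraries, which may be technical. Total counts ran from 15237626 to 26250461 per library.

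2 features of the labels bear on the results. The aged plantaris libraries carry soleus in their titles and plantaris as their source, and the source was followed. Their myosin genes set them apart from soleus, with Myh4, the myosin of IIb fibres, at 53711 ± 11679 CPM in sedentary aged plantaris and 357 ± 709 CPM in sedentary aged soleus (SD, n = 5 each). The libraries labelled young plantaris went against their label, with Myh4 at 19.3 ± 5.22 CPM after PoWeR and 27.8 ± 10.1 CPM when sedentary (n = 4 each), a soleus-like level. They are called the libraries labelled young plantaris throughout, and comparisons of age within plantaris therefore also compare different muscle profiles. CPM are counts scaled by library size, with the total adjusted by TMM.

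Endothelial cells line the blood vessels of muscle, and in skeletal muscle most of them belong to the capillaries that run along the fibres. They are held together by adherens junctions, built on the cadherin encoded by Cdh5, and by tight junctions, to which claudin-5 (Cldn5), Esam and the scaffold ZO-1 (Tjp1) belong, while PECAM-1 (Pecam1) is an adhesion molecule of the cell borders. Endomucin (Emcn) is a sialoglycoprotein of the capillary and venous surface, Tie1 is a receptor tyrosine kinase of the angiopoietin system, Egfl7 is a protein that endothelial cells secrete into the matrix, Rbp7 binds retinol inside endothelial cells and adipocytes, and Mecom (also called Evi1) is a zinc finger transcription factor known in blood stem cells and in arterial endothelium. Tjp1 and Mecom are not restricted to endothelium.

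In mm10, the gene models are at chromosome 11, 106654217 to 106750628 for Pecam1, chromosome 8, 104101625 to 104144511 for Cdh5, chromosome 16, 18776847 to 18778262 for Cldn5, chromosome 9, 37528078 to 37538319 for Esam and chromosome 7, 65296165 to 65527781 for Tjp1. Those of the other members are at chromosome 3, 137341067 to 137432185 for Emcn, chromosome 4, 118471191 to 118490061 for Tie1, chromosome 2, 26580014 to 26593120 for Egfl7, chromosome 4, 149449687 to 149454978 for Rbp7 and chromosome 3, 29951296 to 30548008 for Mecom. All are protein-coding genes. Egfl7 shares 64 exon bases with Agpat2 and Mecom shares 81 with the antisense gene Mecomos, each on the opposite strand. Whether the counting used strand is not given in the sources used here, so reads from those stretches cannot be assigned to either gene with certainty. Egfl7 also shares 264 exon bases with the protein-coding gene Gm20532 and 73 with Mir126a, both on its own strand. Strand cannot separate these, and neither symbol is in the deposited table.

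The proximal promoters are shown first because endothelial genes are known for binding sites of ETS transcription factors, whose core is GGAA. Promoters of 7 members, with 10 annotated starts, were matched by symbol in a RefSeq table (GRCm38.p6), and Pecam1, Cdh5 and Esam had no entry. The 5 stretches printed are the exon-free parts of the 250 bases before the start of Emcn and Rbp7, the members with separate trained and sedentary values in young soleus, of Tjp1, chosen for its level in aged plantaris, of Tie1, the member with the largest age difference after Rbp7 in sedentary soleus, and of Cldn5, as a member without the motif. Capitals mark AGGAAG or CGGAAG on either strand, where CTTCCT and CTTCCG are their complements.
Emcn, chr3:137340828-137341066, strand +: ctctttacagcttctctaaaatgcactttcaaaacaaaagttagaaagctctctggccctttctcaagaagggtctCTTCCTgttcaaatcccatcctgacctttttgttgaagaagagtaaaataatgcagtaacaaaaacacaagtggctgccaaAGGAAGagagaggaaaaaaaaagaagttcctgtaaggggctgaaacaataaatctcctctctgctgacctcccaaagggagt
Rbp7, chr4:149454979-149455218, strand -: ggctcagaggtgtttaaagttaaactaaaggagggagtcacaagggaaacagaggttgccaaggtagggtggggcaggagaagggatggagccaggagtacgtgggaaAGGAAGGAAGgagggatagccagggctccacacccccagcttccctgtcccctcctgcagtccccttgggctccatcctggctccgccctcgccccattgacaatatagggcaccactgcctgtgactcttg
Tjp1, chr7:65371245-65371494, strand -: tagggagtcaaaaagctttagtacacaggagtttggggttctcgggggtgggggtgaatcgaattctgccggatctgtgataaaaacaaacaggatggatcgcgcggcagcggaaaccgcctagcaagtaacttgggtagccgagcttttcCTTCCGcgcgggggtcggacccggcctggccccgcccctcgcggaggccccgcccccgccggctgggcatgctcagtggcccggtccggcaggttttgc
Tie1, chr4:118490062-118490099, strand -: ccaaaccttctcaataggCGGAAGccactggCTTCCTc
Cldn5, chr16:18776597-18776846, strand +: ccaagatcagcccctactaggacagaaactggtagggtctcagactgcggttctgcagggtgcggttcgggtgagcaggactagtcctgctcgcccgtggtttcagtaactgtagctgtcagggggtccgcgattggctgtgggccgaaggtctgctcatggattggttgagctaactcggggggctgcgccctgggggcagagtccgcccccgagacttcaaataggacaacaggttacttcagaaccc
The 10 capitals in the Rbp7 stretch are 2 copies of AGGAAG that overlap by 2 letters.

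Of the 10 promoters of members, 7 held AGGAAG or CGGAAG, counted over the whole 250 bases and both strands, and these belong to 6 genes (Egfl7, Emcn, Mecom, Rbp7, Tie1 and Tjp1). The share among all 32851 promoters in the table was 39.2%. AGGAAG alone was in 5 of 10 against 29.5% of all, and CGGAAG alone in 3 of 10 against 13.6%. The nuclear receptor hexamer AGGTCA was in 3 of 10 against 14.02%, the KLF hexamer CCACCC in 4 of 10 against 28.1%, and the GATA hexamer AGATAA in 0 of 10 against 9.99%. These are letter matches in a short window and not shown to be bound. The Mecom promoter with a match is annotated as exon over all its 250 bases. Egfl7 and Mecom each have more than a single start here, so the promoters of members are not all separate genes.

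Egfl7 also hosts a microRNA of endothelial cells, miR-126a, within its gene body. Its mature 3p arm lies at chr2:26591402-26591423 on the plus strand of GRCm38.p6 and is printed because these data count the host transcript, while the mature microRNA was not analysed here. The capitals mark the seed, bases 2 to 8.
miR-126a-3p: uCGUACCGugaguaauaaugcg

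Levels can be compared between genes only per length of exon. On that scale (CPM per kb of merged exons, means of the 4 sedentary young soleus libraries with SD), Rbp7 was highest at 20.1 ± 5.49. Cdh5 at 14.5 ± 1.38, Pecam1 at 13.3 ± 0.626 and Cldn5 at 11.3 ± 2.01 followed, and neighbours in this order differed by about an SD or less. Tie1 at 6.52 ± 0.776, Esam at 5.58 ± 0.375, Egfl7 at 4.49 ± 0.482 and Tjp1 at 4.02 ± 0.914 formed a middle range, in which Egfl7 and Tjp1 differed by less than their SDs. Emcn at 1.20 ± 0.182 and Mecom at 0.473 ± 0.0149 were lowest. In sedentary aged soleus the order was led by Cdh5 at 11.2 ± 2.24 and Pecam1 at 11.2 ± 1.47 CPM per kb, while Rbp7 stood at 1.99 ± 0.579 (n = 5).

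**Figure D1:**
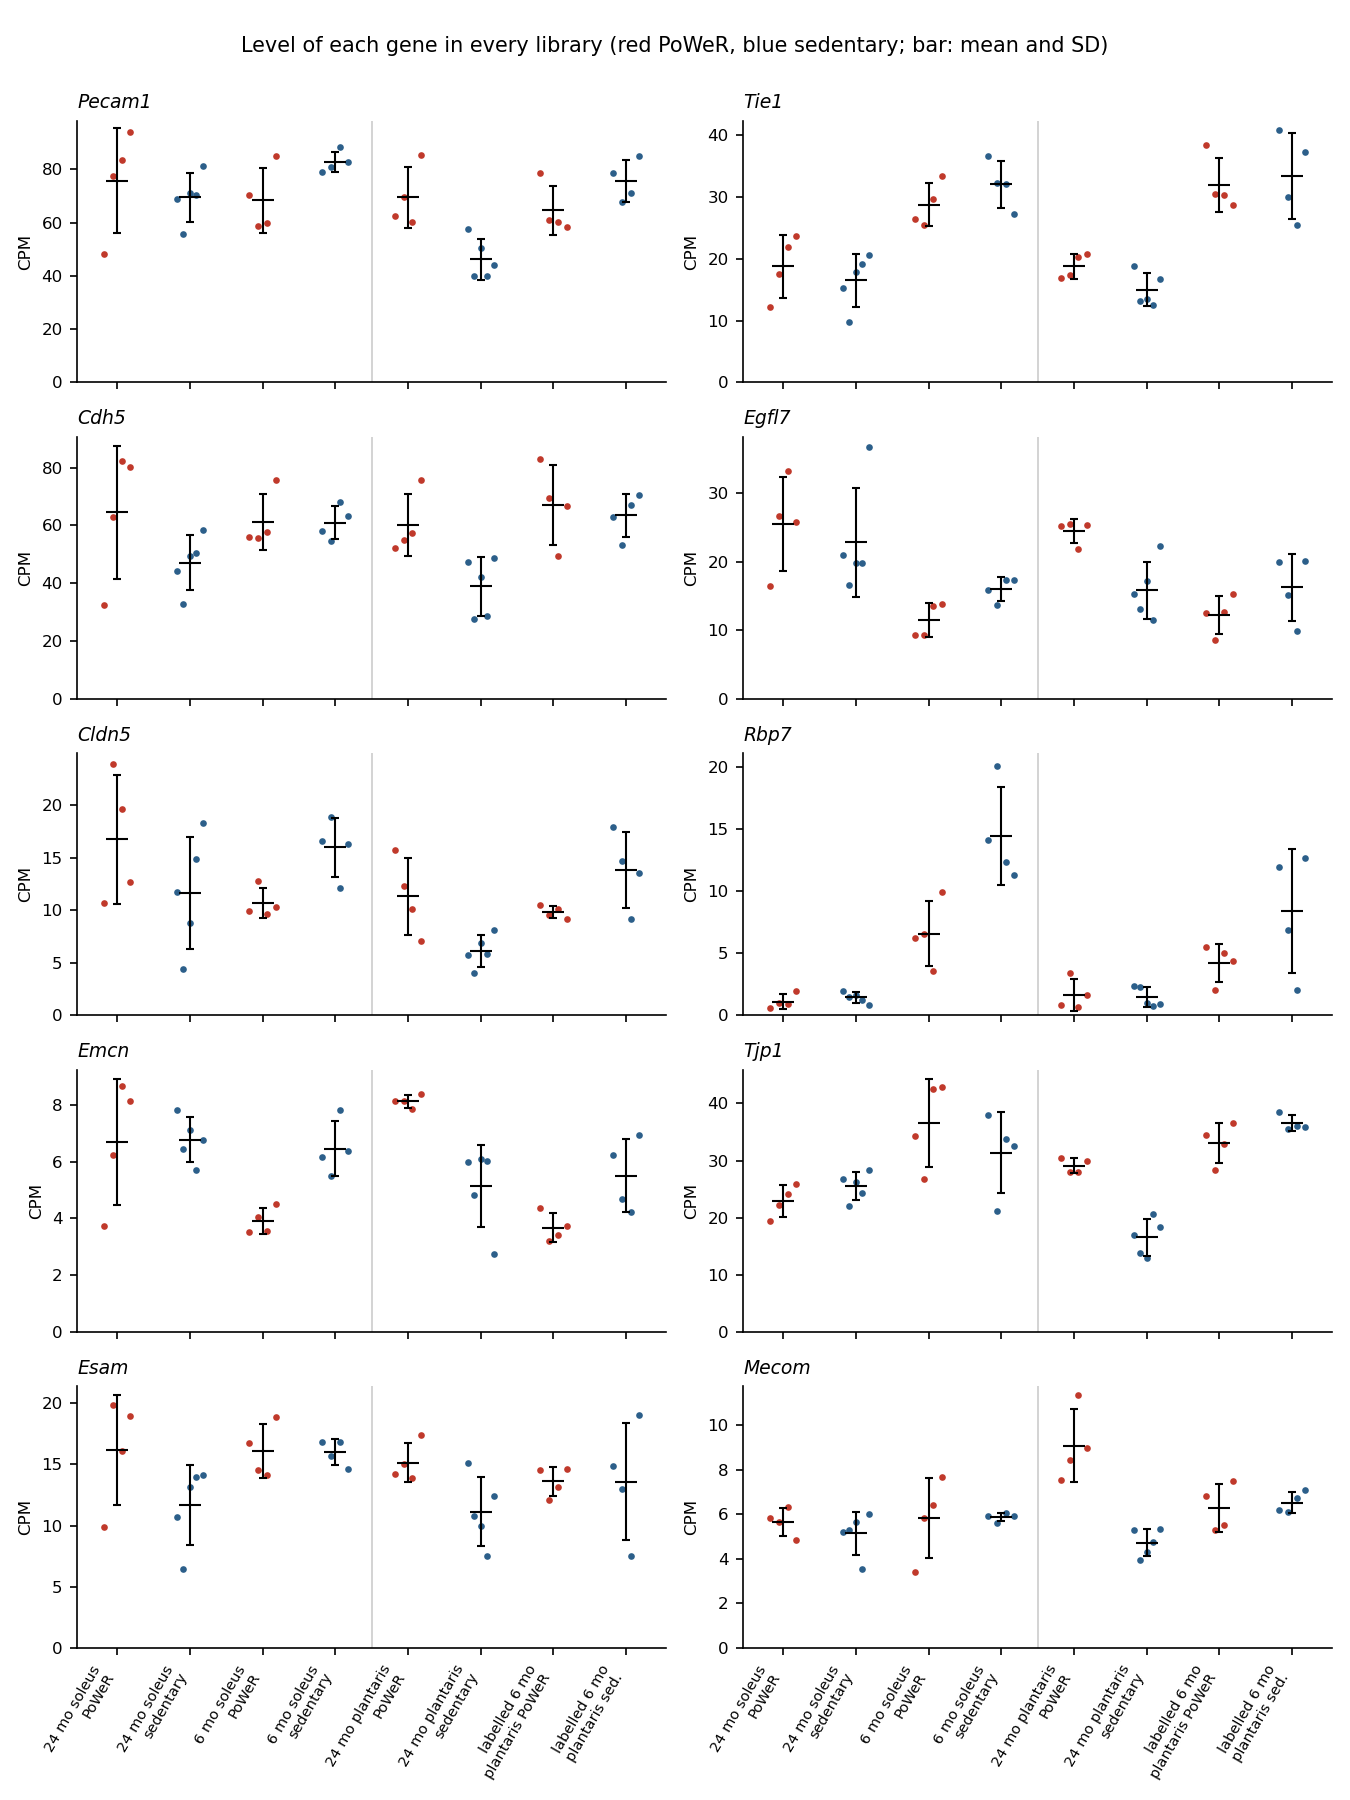
Level of the 10 genes in each of the 34 libraries, in CPM on linear axes that start at 0. Points are libraries, red after PoWeR and blue sedentary, and black bars are group means with SD. Tjp1 and Mecom in each trained aged plantaris library lie above every sedentary one, Rbp7 is between 0.559 and 3.40 CPM in the aged libraries, and Tie1 is higher in every young library than in every aged one.

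In aged plantaris, all 10 members had a higher fitted level after PoWeR than in sedentary muscle, with a median log2 difference of 0.64 against 0.014 over the 15280 genes tested. This contrast chose Tjp1 and Mecom, so it is described and not tested. The threshold behind that choice was a call, meaning that edgeR's quasi-likelihood test gave an adjusted p below 0.05 by the Benjamini-Hochberg method across all tested genes. It kept these 2 genes as higher (0.0131% of genes tested), and nothing is read from that count. The choice depends on the settings. Both genes lay outside the threshold with only the groups compared, with a replicate block, and without sedentary library 13 or 14 or trained library 10, 12 or 15. That block joins trained and sedentary libraries of the same number, which the labels do not link. Mecom did so also with RLE factors, with scaling to nuclear genes, with no filter on low counts, without sedentary library 12 or 15 or trained library 14, and without both sedentary library 16 and trained library 12. DESeq2 placed Pecam1 and Cldn5 inside it as well. The nearest gene with a higher level outside that threshold was Dock9, a guanine exchange factor, at a log2 difference of 0.82 ± 0.15 (SE), beside 0.95 ± 0.17 for Mecom just inside it. In bulk muscle, more cells of a type and more RNA per cell cannot be told apart.

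Tjp1, the scaffold that ties tight junction proteins to actin, had 30.4, 27.9, 27.9 and 29.98 CPM in trained aged plantaris, against 16.97, 13.8, 12.9, 20.7 and 18.3 CPM in sedentary aged plantaris. All 4 trained libraries were above all 5 sedentary ones, and the log2 difference was 0.83 ± 0.12 (SE). Mecom had 7.52, 8.44, 11.3 and 8.98 CPM after PoWeR, against 5.29, 3.97, 4.31, 4.74 and 5.33 CPM in sedentary muscle. The groups again did not overlap, and trained library 14 was the highest (log2 difference 0.95 ± 0.17).

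Among the adhesion and junction genes, Pecam1 had 62.5, 69.5, 60.4 and 85.5 CPM in trained aged plantaris, against 57.7, 39.8, 50.3, 39.8 and 44.001 CPM in sedentary aged plantaris, a log2 difference of 0.60 ± 0.14. Cdh5 had 52.1, 54.8, 57.5 and 75.9 CPM after PoWeR, against 47.5, 27.6, 42.1, 28.7 and 48.8 CPM in sedentary muscle (0.64 ± 0.18). For both genes every trained library lay above every sedentary one, by a narrow margin in each. Cldn5 had 15.7, 12.3, 10.2 and 7.04 CPM after PoWeR, against 5.74, 4.03, 6.89, 5.81 and 8.13 CPM in sedentary muscle (0.90 ± 0.22). Its trained libraries spread widely and library 15 fell inside the sedentary range. Esam, an immunoglobulin-type adhesion molecule of endothelial tight junctions, averaged 15.1 ± 1.57 CPM after PoWeR and 11.2 ± 2.82 CPM in sedentary muscle (SD, n = 4 and 5; log2 0.46 ± 0.21), with overlap.

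Emcn had 8.13, 8.15, 7.84 and 8.40 CPM in trained aged plantaris, against 5.996, 4.81, 6.11, 6.01 and 2.73 CPM in sedentary aged plantaris (0.68 ± 0.21). The trained libraries were nearly equal and all above the sedentary ones, of which library 16 was the lowest. Egfl7 averaged 24.5 ± 1.76 CPM after PoWeR and 15.9 ± 4.18 CPM in sedentary muscle (0.64 ± 0.21), and Tie1 averaged 18.8 ± 2.01 and 14.97 ± 2.68 CPM in the same order (0.34 ± 0.15), both with overlap. Rbp7 was low throughout, with 0.789, 3.40, 0.7004 and 1.63 CPM after PoWeR and 2.36, 2.29, 0.958, 0.735 and 0.889 CPM in sedentary muscle (0.21 ± 0.58). Its positive sign rested on trained library 12, without which the difference was -0.45. In all, 5 of the 10 members (Pecam1, Cdh5, Emcn, Tjp1 and Mecom) had every trained library above every sedentary one, beside 1.58% of all genes tested. Since the choice of Tjp1 and Mecom used this contrast, nothing is read from that count.

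Trained library 12 of aged plantaris stood apart in other cell types. Its summed level of 7 adipocyte markers was 831 CPM, against 41.96 to 98.99 CPM in the other trained libraries and 37.02 to 126 CPM in the sedentary ones, and its 8 Schwann cell markers summed to 267 CPM, against 46.3 to 54.2 CPM and 24.3 to 59.5 CPM. For the members other than Rbp7 the differences stayed close to these values without it: 0.83 for Tjp1, 0.97 for Mecom and 0.37 to 0.83 for the 7 endothelial markers. Markers of mural cells, the pericytes and smooth muscle around vessels, moved with the members, with 9 of 10 higher and a median log2 difference of 0.59. Their summed level was 614 to 779.9 CPM after PoWeR and 422 to 571 CPM in sedentary muscle, with none of the 10 at 0 throughout. Library 12 was also highest in the 7 fibroadipogenic markers, at 2206 CPM, against 779 to 991 CPM in the other trained libraries and 395 to 1210.0 CPM in the sedentary ones. All 7 fibroadipogenic (median log2 difference 0.61), 8 Schwann cell (1.56) and 7 adipocyte markers (1.84) were higher after PoWeR. So were all 6 lymphatic (0.38) and 7 macrophage markers (0.25). Erythroid markers were higher in 4 of 5 (0.11) and satellite cell markers in 3 of 6 (0.024). edgeR called 0 in each list, and the rise was not particular to vessel markers. The part of these cell types in the result was not tested.

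A wider list of 32 other endothelial genes showed the same direction in aged plantaris. All 32 had a higher fitted level after PoWeR, with a median log2 difference of 0.46. edgeR called 0 of them and DESeq2 called 4 (Erg, Mmrn2, Myct1 and Sox7), beside 116 of all genes by DESeq2. An unadjusted p under 0.05 was found for 19 of the 32, beside 1506 of all 15280 genes. The smallest p-values belonged to Myct1 at 1.11 ± 0.22 and Mmrn2, a matrix glycoprotein of endothelium, at 0.67 ± 0.16. All 10 arterial markers were higher as well (median 0.77), as were all 8 capillary markers (median 0.41) and 5 of 6 venous ones (median 0.32). edgeR called 0 in each, with 5, 4 and 1 at an unadjusted p under 0.05 in the arterial, capillary and venous lists. These lists share Sox17, Gpihbp1, Aqp1, Aplnr and Vwf with the wider list, so they are not separate evidence. The contrast is also the one that chose Tjp1 and Mecom, and the lists were chosen with earlier results known. The counts are therefore descriptions.

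**Figure D2:**
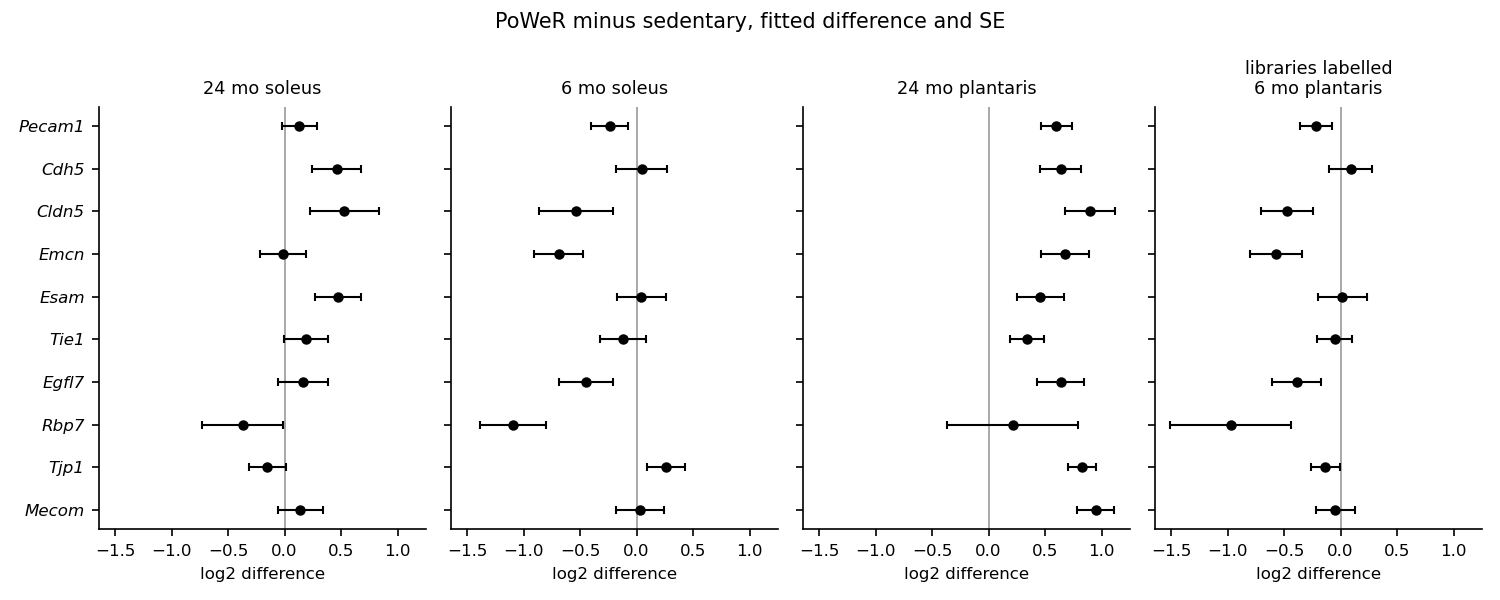
Log2 difference of PoWeR minus sedentary for the 10 genes in the 4 pairs of groups, points with SE bars from the edgeR fit. In aged plantaris every point lies to the right of 0. In the 2 young comparisons Pecam1, Cldn5, Emcn, Tie1, Egfl7 and Rbp7 lie to the left, Tie1 by less than its SE.

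In aged soleus, none of the 9 members that could be tested passed (0 of 9 by edgeR and by DESeq2), beside 0.857% of all genes called by edgeR. An unadjusted p under 0.05 was found for 2 of the 9, beside 1907 of all 14934 genes. Rbp7 was left out of the test because its age contrast used the same sedentary libraries. The median log2 difference of the 9 was 0.16, against -0.0031 over all genes. Cdh5 had 32.5, 63.01, 82.3 and 80.4 CPM after PoWeR, against 44.3, 32.8, 49.3, 50.6 and 58.4 CPM in sedentary aged soleus (0.46 ± 0.22; adjusted p = 0.384). Esam had 9.90, 19.8, 16.1 and 18.9 CPM after PoWeR, against 10.7, 6.47, 13.2, 13.99 and 14.1 CPM in sedentary muscle (0.47 ± 0.20; adjusted p = 0.337). In both genes 3 of 4 trained libraries were above all sedentary ones and trained library 10 lay low, within the sedentary range or just below it.

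Trained library 10 was the lowest of its group in all 7 endothelial markers, with a mean of 3.84 log2 CPM over the 7, against 4.67 to 4.81 in the other 3. Its share of counts from the rRNA repeat gene CT010467.1 was 2.19%, the highest of the aged soleus libraries. Sedentary library 13 was low in the same way, at 3.68 against 4.27 to 4.65. Without trained library 10, Cdh5 passed at a log2 difference of 0.68 (edgeR adjusted p = 0.0429), and so did Flt1, a VEGF receptor, among the other endothelial genes (0.66, adjusted p = 0.0355). Without sedentary library 13 the difference of Cdh5 was 0.35. Over the 9 fits that each left out a library of these groups, 36 to 172 of all genes were called. Library 10 was singled out by its low level of these same markers, so leaving it out raises their difference. Nothing is therefore read from the calls of Cdh5 and Flt1.

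Tjp1 and Mecom did not pass in aged soleus. Tjp1 had 19.4, 22.2, 24.2 and 25.9 CPM after PoWeR, against 26.7, 22.01, 26.2, 24.4 and 28.4 CPM in sedentary muscle (-0.15 ± 0.16; adjusted p = 0.772). Mecom had 5.82, 5.65, 6.32 and 4.84 CPM after PoWeR, against 5.19, 5.28, 5.66, 3.54 and 6.03 CPM in sedentary muscle (0.14 ± 0.20; adjusted p = 0.848). The groups overlapped for both. Cldn5 averaged 16.8 ± 6.15 CPM after PoWeR and 11.6 ± 5.35 CPM in sedentary muscle (0.53 ± 0.30; adjusted p = 0.51), and the differences of Pecam1, Emcn, Tie1 and Egfl7 were 0.13, -0.01, 0.19 and 0.16. Rbp7 averaged 1.10 ± 0.582 CPM after PoWeR and 1.43 ± 0.416 CPM in sedentary muscle. Of the 32 other endothelial genes 24 were higher, with a median of 0.26, and edgeR and DESeq2 called 0 (2 with an unadjusted p under 0.05). In the list of 18 junction genes, 15 were tested and 1 rose: Jup, the plakoglobin of adherens junctions and desmosomes, at 134 ± 21.6 CPM after PoWeR and 71.5 ± 7.13 CPM in sedentary muscle (0.91 ± 0.10; edgeR adjusted p = 0.000279).

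**Figure D3:**
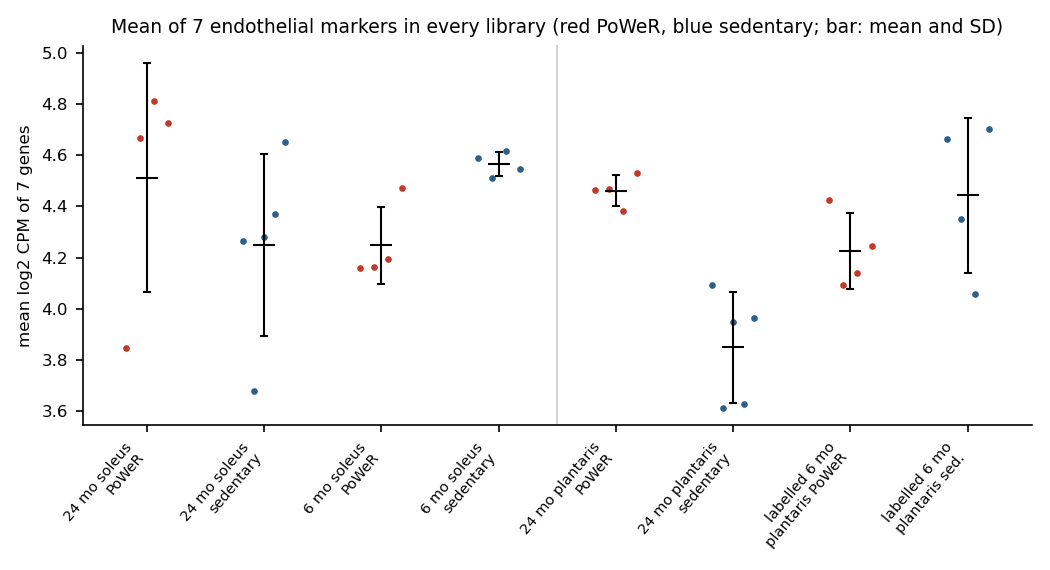
Mean log2 CPM of the 7 endothelial markers in each library, red after PoWeR and blue sedentary, with group mean and SD (the axis does not start at 0). The 4 trained aged plantaris libraries lie between 4.38 and 4.53, above the 5 sedentary ones. In aged soleus PoWeR library 10 and sedentary library 13 lie far below their groups.

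In young soleus, Emcn fell with PoWeR and was the 1 of 9 tested members that passed, beside 6.89% of all genes called lower. Emcn had 3.54, 4.05, 3.56 and 4.50 CPM after PoWeR, against 6.16, 5.49, 7.82 and 6.39 CPM in sedentary young soleus, a log2 difference of -0.69 ± 0.22 (SE; edgeR adjusted p = 0.0421). Every trained library was below every sedentary one. The call was close to the threshold and held in only 1 of the 8 fits that left out a library of these groups, the one without PoWeR library 4, with adjusted p-values of 0.0350 to 0.117 over the 8 and differences of -0.77 to -0.59. It was also lost when the fit included a term marking libraries with an rRNA repeat share under 0.7% (-0.65; adjusted p = 0.118). In soleus that term marked only young PoWeR library 3, so it nearly repeats the fit without that library. The call was lost too when only these 2 groups were fitted (-0.69; adjusted p = 0.0614).

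Rbp7 had 6.25, 6.57, 3.56 and 9.88 CPM in trained young soleus, against 14.1, 20.1, 12.3 and 11.3 CPM in sedentary young soleus (-1.09 ± 0.30), and the groups did not overlap. It is given as a description, because its choice used the sedentary young libraries. PoWeR library 3, the lowest for Rbp7, was also the only young soleus library whose rRNA repeat share was under 0.7%, at 0.423%, and the other 3 trained libraries still lay below all sedentary ones. Cldn5 had 9.97, 12.8, 9.68 and 10.4 CPM after PoWeR, against 16.6, 18.9, 12.1 and 16.3 CPM in sedentary muscle (-0.53 ± 0.32; adjusted p = 0.295). Its groups touched only at PoWeR library 2 and sedentary library 3. Egfl7 averaged 11.5 ± 2.54 CPM after PoWeR and 16.1 ± 1.73 CPM in sedentary muscle (-0.44 ± 0.24; adjusted p = 0.231).

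The remaining members did not pass in young soleus. Cdh5, the core adherens junction cadherin, averaged 61.3 ± 9.72 CPM after PoWeR and 61.005 ± 5.82 CPM in sedentary muscle (0.04 ± 0.23), Esam 16.1 ± 2.18 and 16.003 ± 1.07 CPM (0.04 ± 0.21), and Mecom 5.83 ± 1.79 and 5.88 ± 0.186 CPM (0.03 ± 0.21), in the same order. Pecam1 (-0.24 ± 0.16), Tie1 (-0.12 ± 0.20) and Tjp1 (0.26 ± 0.17) did not pass either. The median log2 difference of the 9 tested members was -0.12, against 0.039 over all genes.

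Of the 32 other endothelial genes in young soleus, 2 fell and 0 rose, a share near that of all genes (6.89% called lower), and 25 had a lower fitted level (median -0.20). Plvap, a protein of the diaphragms of fenestrated capillaries and veins, averaged 12.2 ± 1.38 CPM after PoWeR and 22.2 ± 3.15 CPM in sedentary muscle (-0.82 ± 0.15; edgeR adjusted p = 0.00504). Sox18, an endothelial transcription factor, averaged 4.41 ± 1.24 and 9.39 ± 1.13 CPM in the same order (-1.06 ± 0.26; adjusted p = 0.015). The calls in the lists that follow stand beside 6.89% of all genes called lower and 5.97% called higher, and nothing particular to the lists is read from them. Among 10 ligands of vessel growth 2 fell. Vegfa, the main ligand of the VEGF receptors, averaged 67.9 ± 5.03 CPM after PoWeR and 140.2 ± 34.4 CPM in sedentary muscle (-1.01 ± 0.17; adjusted p = 0.00445), and its relative Vegfb 77.6 ± 25.7 and 122 ± 9.07 CPM (-0.62 ± 0.17; adjusted p = 0.0223). Of 8 capillary markers Fabp4, a fatty acid carrier, fell (-0.78 ± 0.17; adjusted p = 0.0107). Among 9 tested retinoid genes Rbp4, the plasma carrier of retinol, rose (1.65 ± 0.48; adjusted p = 0.0336), and of 10 mural markers Abcc9 rose (0.45 ± 0.12; adjusted p = 0.0242). Ackr1, an atypical chemokine receptor of venules, fell among 6 venous markers (-0.95 ± 0.30; adjusted p = 0.0381), Jup rose again among the junction genes (0.63 ± 0.11; adjusted p = 0.0045), and Mrc1, a scavenger receptor, rose among 7 macrophage markers (1.20 ± 0.31; adjusted p = 0.0207).

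Fabp4 and Rbp7 are also expressed in adipocytes, and markers of adipocytes and Schwann cells had lower levels in trained young soleus too. All 7 adipocyte markers were lower (median -0.50; summed level 93.2 to 124 CPM after PoWeR and 108 to 189 CPM in sedentary muscle). Of 8 Schwann cell markers 7 were lower (median -0.29; 61.4 to 117 CPM after PoWeR and 94.5 to 118 CPM in sedentary muscle). edgeR called 0 genes of these lists, with 1 adipocyte and 0 Schwann cell markers at an unadjusted p under 0.05. No marker was at 0 throughout, and the part of these cell types in the values of the members was not tested. Other lists were mostly higher: 6 of 7 fibroadipogenic (median 0.38), 5 of 6 satellite cell (0.48) and 6 of 7 macrophage markers (0.31). So were 5 of 6 lymphatic (0.26), 6 of 10 mural (0.21) and 3 of 5 erythroid markers (0.0004).

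In the libraries labelled young plantaris, 0 of 9 tested members passed by edgeR or DESeq2, beside 0.223% of all 15280 genes called by edgeR. An unadjusted p under 0.05 was found for 1 of the 9, beside 1875 of all genes. Emcn had 4.37, 3.19, 3.41 and 3.74 CPM after PoWeR, against 6.23, 4.67, 4.22 and 6.93 CPM in the sedentary libraries (-0.57 ± 0.23; adjusted p = 0.308). Only PoWeR library 1 was above the lowest sedentary value. Cldn5 averaged 9.82 ± 0.560 CPM after PoWeR and 13.8 ± 3.61 CPM when sedentary (-0.48 ± 0.23; adjusted p = 0.41). Rbp7 had 5.49, 2.05, 4.995 and 4.34 CPM after PoWeR, against 11.9, 6.86, 2.04 and 12.7 CPM in the sedentary libraries (-0.97 ± 0.53), and sedentary library 3 lay at the level of the lowest trained one.

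Sedentary library 3 was also the lowest of its group for Egfl7, at 9.84 CPM against 15.1 to 20.1, and for Esam, at 7.54 CPM against 12.95 to 19.04. Its rRNA repeat share was 0.578%, against 3.13 to 3.71% in the other sedentary libraries, and PoWeR libraries 1, 2 and 4 had 0.242 to 0.326%, against 2.73% in PoWeR library 3. The part of this share in the values was not tested beyond a fit with a term marking shares under 0.7%. In that fit Emcn had a log2 difference of -0.47. Differences of the other members were 0.09 for Cdh5, 0.01 for Esam, -0.05 for Mecom, -0.05 for Tie1, -0.13 for Tjp1, -0.22 for Pecam1 and -0.39 for Egfl7. Of the 32 other endothelial genes 26 had a lower level (median -0.19), edgeR called 0 and DESeq2 1 (beside 222 of all genes by DESeq2), and 3 had an unadjusted p under 0.05. Vegfa fell again, to 66.3 ± 3.98 CPM after PoWeR, against 123 ± 9.29 CPM in the sedentary libraries (-0.88 ± 0.16; edgeR adjusted p = 0.027).

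A dependence of the training difference on age was tested in soleus, as the aged minus the young PoWeR difference. edgeR called 0 of the 9 members and 0% of 14934 genes, while 2 members and 1995 genes had an unadjusted p under 0.05, and DESeq2 called 72 genes but no member. The 2 members were Cldn5, with a difference of 1.06 ± 0.45 (SE; adjusted p = 0.32), and Emcn, with 0.68 ± 0.30 (adjusted p = 0.335). 8 of the 9 were positive, with a median of 0.41 against -0.013 over all genes, and Tjp1 was the exception at -0.41 ± 0.23. Of the 32 other endothelial genes 28 were positive, with a median of 0.41, 7 had an unadjusted p under 0.05, edgeR called 0 and DESeq2 called Sox18. The fall of Emcn in young soleus is therefore not shown to differ from its value in aged soleus. The aged and young training differences in plantaris were not set against each other in a test, since the first chose Tjp1 and Mecom and the muscle profiles differ.

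Age is described without tests of the members, since it chose Rbp7. Many genes differed between the ages. edgeR called 5411 of 14934 genes in sedentary soleus and 7625 of 15280 in the sedentary plantaris groups. The share of all genes without overlap between ages was not counted. Nothing particular to the members is therefore read from groups that do not overlap. Rbp7 had 1.97, 1.43, 1.63, 1.26 and 0.854 CPM in sedentary aged soleus, against 14.1, 20.1, 12.3 and 11.3 CPM in sedentary young soleus (-3.26 ± 0.31). It had 0.559, 0.993, 0.934 and 1.93 CPM in trained aged soleus, against 6.25, 6.57, 3.56 and 9.88 CPM in trained young soleus (-2.54 ± 0.34). Every aged soleus library was below every young one, and the change of the age difference with training was not tested. In sedentary aged plantaris Rbp7 averaged 1.45 ± 0.805 CPM, against 8.38 ± 4.95 CPM in the sedentary libraries labelled young plantaris (-2.52 ± 0.54), with overlap at the young library 3 described above.

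Tie1 and Tjp1 also had a lower fitted level at 24 months in all 4 pairs of groups. Tie1 had 15.3, 9.76, 17.9, 19.2 and 20.6 CPM in sedentary aged soleus, against 36.6, 32.3, 32.1 and 27.3 CPM in sedentary young soleus (-0.89 ± 0.19). In trained soleus it averaged 18.8 ± 5.12 CPM at 24 months and 28.8 ± 3.54 CPM at 6 months (-0.59 ± 0.20). Against the libraries labelled young plantaris, the difference of aged plantaris was -1.15 ± 0.15 when sedentary and -0.76 ± 0.16 after PoWeR. In none of these 4 pairs did the aged and young libraries of Tie1 overlap.

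Egfl7 and Emcn had a higher level at 24 months in trained muscle. Egfl7 had 16.4, 26.7, 33.2 and 25.8 CPM in trained aged soleus, against 9.28, 9.31, 13.6 and 13.8 CPM in trained young soleus (1.17 ± 0.24), with every aged library above every young one. Its difference was 0.57 ± 0.22 in sedentary soleus, 0.999 ± 0.22 between trained aged plantaris and the trained libraries labelled young plantaris, and -0.03 ± 0.21 between the sedentary ones. Emcn differed by 0.80 ± 0.22 in trained soleus and 0.12 ± 0.20 in sedentary soleus. In the plantaris groups it differed by 1.15 ± 0.23 and -0.10 ± 0.21 in the same order. The trained soleus groups overlapped for Emcn, with aged library 10 at 3.75 CPM, against 3.54 to 4.50 CPM in the young libraries.

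Tjp1 averaged 22.9 ± 2.78 CPM in trained aged soleus and 36.6 ± 7.70 CPM in trained young soleus (-0.65 ± 0.17), and 25.5 ± 2.43 and 31.4 ± 7.14 CPM in sedentary aged and young soleus (-0.24 ± 0.16). In sedentary aged plantaris it was at 16.5 ± 3.21 CPM, against 36.5 ± 1.38 CPM in the sedentary libraries labelled young plantaris (-1.14 ± 0.12), and in the trained pair the difference was -0.18 ± 0.13. Sedentary aged plantaris was also below the sedentary libraries labelled young plantaris in Pecam1 (-0.70 ± 0.14), Cdh5 (-0.70 ± 0.18) and Cldn5 (-1.16 ± 0.22), without overlap, while the trained pair differed by 0.11, -0.15 and 0.21. In sedentary soleus the same genes differed by -0.19, -0.31 and -0.39, all with overlap, and Esam by -0.39 ± 0.20 with every aged library below every young one. Mecom differed by -0.13 ± 0.20 in sedentary soleus and -0.46 ± 0.17 in the sedentary plantaris groups. The trained and sedentary age contrasts share no libraries, but each shares its libraries with the training contrasts above. The median over the 10 members was -0.28 in sedentary soleus and -0.70 in the sedentary plantaris groups, and for the 32 other endothelial genes -0.49 and -0.92, beside 0.029 and -0.0013 over all genes.

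**Figure D4:**
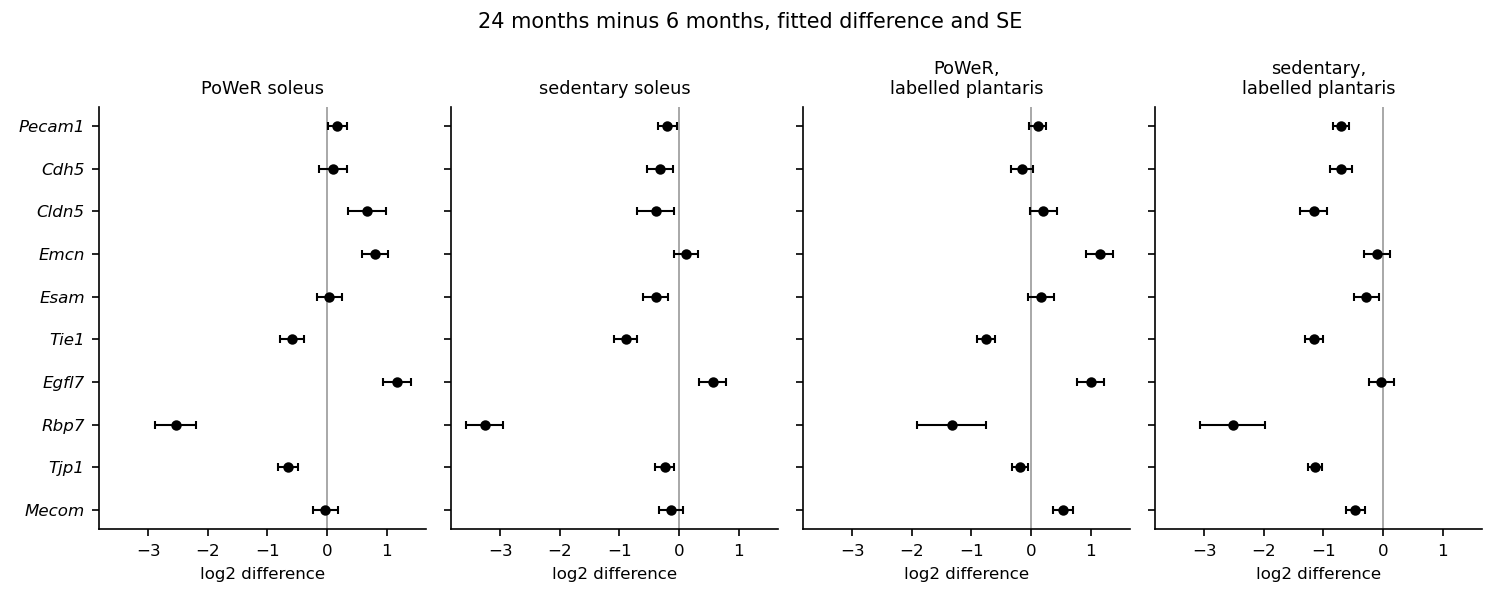
Log2 difference of 24 months minus 6 months for the 10 genes in 4 pairs of groups, points with SE bars from the edgeR fit, shown as a description. Rbp7, Tie1 and Tjp1 lie to the left of 0 in all 4 panels. The plantaris panels set aged plantaris against libraries labelled young plantaris whose myosin genes are soleus-like.

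Between the muscles of sedentary aged mice, the 7 endothelial markers were tested, and 2 of 7 passed, both higher in soleus, beside 17% of all 14823 genes called higher. Pecam1 had 68.96, 55.6, 71.05, 70.5 and 81.3 CPM in soleus, against 57.7, 39.8, 50.3, 39.8 and 44.001 CPM in plantaris (0.62 ± 0.16; edgeR adjusted p = 0.00512), with overlap at soleus library 13 and plantaris library 12. Cldn5 had 11.8, 4.41, 8.82, 14.9 and 18.3 CPM in soleus, against 5.74, 4.03, 6.89, 5.81 and 8.13 CPM in plantaris (0.96 ± 0.34; adjusted p = 0.0369). Soleus library 13 lay inside the plantaris range, and the Cldn5 call was lost in 7 of the 10 fits that left out a library of these groups, with adjusted p-values up to 0.109.

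All 7 markers had a higher fitted level in soleus, with a median of 0.43 against 0.047 over all genes, and 3 had an unadjusted p under 0.05, beside 6241 of all 14823 genes. Egfl7 averaged 22.9 ± 7.97 CPM in soleus and 15.9 ± 4.18 CPM in plantaris (0.56 ± 0.22; adjusted p = 0.0596). The library names share a number between the muscles, and in a fit with that number as a block Egfl7 passed (edgeR adjusted p = 0.00854), as it did by DESeq2 (0.0466). Emcn averaged 6.78 ± 0.784 and 5.13 ± 1.44 CPM (0.43 ± 0.22) in the same order, and Cdh5, Tie1 and Esam differed by 0.30, 0.18 and 0.10. Tjp1, described only, had 26.7, 22.01, 26.2, 24.4 and 28.4 CPM in soleus, against 16.97, 13.8, 12.9, 20.7 and 18.3 CPM in plantaris (0.66 ± 0.12), and the muscles did not overlap. Mecom differed by 0.15 ± 0.16 and Rbp7 by 0.02 ± 0.46. Of the 32 other endothelial genes 5 were called higher in soleus (Ecscr, Vwf, She, Plvap and Myct1) and 0 lower. That share is near the 17% of all genes called higher. With the number as a block 12 were called, beside 5218 of all 14823 genes. Nothing particular to the list is read from either count. The largest differences were those of Ecscr, an endothelial cell surface regulator (0.85 ± 0.23; adjusted p = 0.00651), and Vwf, the von Willebrand factor of the vessel wall (0.81 ± 0.26; adjusted p = 0.0223). The list's median was 0.40, with 31 of 32 positive. Mural markers differed in the same direction, with 4 of 10 called higher in soleus and 1 lower (median 0.69), beside 17% and 15.8% of all genes. All 7 adipocyte markers (median 1.56), all 6 lymphatic ones (median 1.13) and all 5 erythroid ones (median 0.67) had a higher level in soleus too. Their summed levels in soleus and plantaris were 71.1 to 283 and 37.02 to 126 CPM for adipocytes, 61.5 to 81.6 and 8.000 to 25.6 CPM for lymphatic vessels, and 360.3 to 1028 and 298 to 747 CPM for erythroid cells. The part of these cell types in the result was not tested.

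After PoWeR, edgeR and DESeq2 called 0 of the 7 markers between aged soleus and plantaris, beside 22.5% of all genes called by edgeR. An unadjusted p under 0.05 was found for 0 of the 7, beside 4980 of all genes. Pecam1 averaged 75.8 ± 19.7 CPM in trained soleus and 69.5 ± 11.4 CPM in trained plantaris (0.15 ± 0.18; adjusted p = 0.614), and Cldn5 16.8 ± 6.15 and 11.3 ± 3.65 CPM (0.59 ± 0.36; adjusted p = 0.28). Their spread was wide, so these values do not show that the muscles are alike. The median of the 7 was 0.12, and of the other 32 endothelial genes 20 were higher in soleus (median 0.11), with 0 called and 0 at an unadjusted p under 0.05. Mecom had 5.82, 5.65, 6.32 and 4.84 CPM in trained soleus, against 7.52, 8.44, 11.3 and 8.98 CPM in trained plantaris (-0.66 ± 0.18), and Tjp1 differed by -0.32 ± 0.13. In both genes every soleus library was below every plantaris one. The change of the muscle difference with training was not tested.

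**Figure D5:**
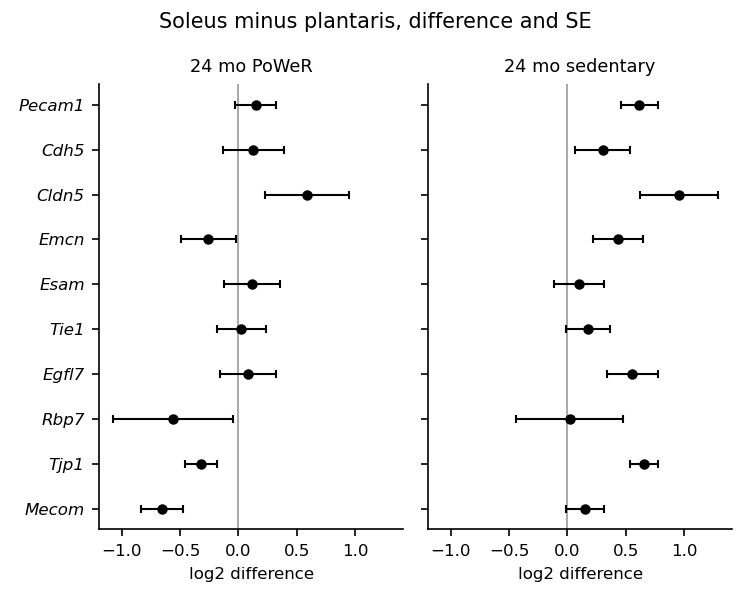
Log2 difference of soleus minus plantaris at 24 months for the 10 genes, after PoWeR at the left and sedentary at the right, points with SE bars from the edgeR fit. Tjp1 lies to the right of 0 between sedentary muscles and to the left between trained ones, and Mecom to the left between trained muscles.

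Within groups, most of the endothelial markers varied together from library to library, with Cldn5 and Emcn less so. Over the 34 libraries, with each group's mean removed from log2 CPM, the Pearson correlation was highest for Pecam1 and Cdh5 (0.87) and Esam and Tie1 (0.83). It was lowest for Cldn5 and Emcn, at 0.056. Aged soleus PoWeR library 10 and sedentary library 13 had the largest deviations of the mean of the 7, at -0.67 and -0.57. Set against the mean of the other 6 markers, r was 0.85 for Tie1, 0.81 for Esam, 0.80 for Pecam1, 0.75 for Cdh5, 0.71 for Egfl7, 0.47 for Cldn5 and 0.39 for Emcn. Spearman's rho was 0.28 for Cldn5 and 0.48 for Emcn. Against the mean of all 7, r was 0.39 for Rbp7, 0.38 for Tjp1 and 0.17 for Mecom, and 0.32 between Tjp1 and Mecom. The points share library, depth and scaling, so these values are descriptions with no p.

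By the same measure, the genes most like the mean of the 7 markers, among 9482 genes with a mean of at least 5 CPM that are no members, were Sema3g (r = 0.90, Spearman's rho = 0.86), Ets1 (0.87, 0.86), Arap3 (0.86, 0.85) and Abcb1a (0.85, 0.75). Sema3g is a semaphorin of arterial endothelium and stands in the arterial list, Arap3 in the list of other endothelial genes, and Ets1 encodes an ETS factor. Those most like Rbp7 were Ly6e (r = 0.80, rho = 0.73), Sult1a1 (0.80, 0.77), Ifrd1 (0.77, 0.78) and Ly6c1 (0.76, 0.79), of which Ly6c1, a surface marker of capillary endothelium, stands in the list of other endothelial genes. Those most like Tjp1 were Ebf3 (0.73, 0.73), Gucy1a1 (0.72, 0.72), Pdzd2 (0.71, 0.67) and Swap70 (0.70, 0.65), where Gucy1a1 encodes a subunit of the nitric oxide receptor. Values were lower for Mecom, with r at 0.57 (rho = 0.53) for Pan2, 0.56 (0.41) for Yipf5 and 0.55 (0.63) for Sorbs2.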

How the data were processed

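The authors deposited a table of estimated counts per gene for 34 libraries, which need not be whole (23.2 to 31.5% of the values of a library were not). Per the submitters' processing notes, the tools were STAR 2.7.3a, Partek and DESeq2 and the build was mm10; whether counting used strand is not given in the sources used here. The counts were rounded and scaled by TMM. Genes were kept by filterByExpr (minimum count 10, minimum total 15), which left 14934 genes in the soleus fit, 15280 in the plantaris fit and 14823 in the aged fit. The quasi-likelihood test of edgeR 4.0.16 (R 4.3.3) was fitted with 1 mean per group, with Benjamini-Hochberg adjustment over all genes and calls under 0.05. DESeq2 1.42.0 was an alternative. The steps were tested on simulated data. CPM shown as log2 used a prior count of 0.5. Group was taken from the titles and treatment labels, and for the aged plantaris libraries from the source name instead of the title. The main fits did not pair libraries by number. No 2 replicates differed by less than sampling noise (chi-square per degree of freedom of at least 5.15). Depth was 15237626 to 26250461 counts per library.

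The members and the gene lists were chosen with earlier results of these data known. Named genes were all 10 members, at most 4 genes a list that passed (by size of change) or up to 2 by smallest p where none did, and the 4 genes most like each target, of which 1 is not reported here. Others named (Dock9, Flt1, the genes DESeq2 called and the smallest of 5 endothelial genes higher in soleus) were chosen after their values were seen. Alternatives were DESeq2, RLE factors, scaling to nuclear genes, no filter, a term for the rRNA repeat share, only the groups compared, a replicate block, and leaving out libraries.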

Additional observations from a re-analysis of the deposited data

Results flagged for a closer look

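4 of 80 sets of group values had a library far from the others by Dixon's criterion, and chance flags about 1 in 20 groups. Pecam1 was 78.55 CPM in PoWeR library 1 labelled young plantaris, against 58.53 to 61.1 CPM in the other 3. Cdh5 was 75.85 CPM in young soleus PoWeR library 4, against 55.64 to 57.68 CPM in the other 3. Egfl7 was 36.82 CPM in aged soleus sedentary library 16, against 16.66 to 21.05 CPM in the other 4, and 21.85 CPM in aged plantaris PoWeR library 14, against 25.17 to 25.54 CPM in the other 3.

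For 4 members every trained aged plantaris library lay above the mean of the sedentary ones, while every trained library labelled young plantaris lay below the mean of its sedentary group. The aged minus the young PoWeR log2 difference was 1.373 for Cldn5, 1.247 for Emcn, 1.029 for Egfl7 and 0.9598 for Tjp1. Tjp1 was chosen by the aged contrast, and its trained library 4 labelled young plantaris was at 36.5395 CPM, just below the sedentary mean of 36.5449 CPM. The share of all genes with such opposite directions was not counted, so nothing is read from the number of members. These differences were not tested.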

How the results depend on the processing

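Of 1490 member values under the alternatives, 1432 counted as unchanged, 17 lost a call and 6 gained one (Egfl7 between sedentary aged muscles and Cdh5 in aged soleus). The other 35 changed sign, all where the member was tested and none of them called. For a tested member, unchanged means the same direction and the same side of the threshold. Elsewhere it means a shift smaller than the SD between libraries. The 1432 therefore include changes of sign or call described above for Rbp7, Tjp1 and Mecom in aged plantaris. Calls are counted where members were tested, so those of Rbp7, those in aged plantaris and between ages, and those of Tjp1 and Mecom between muscles are left out. The 17 lost calls were those of Emcn in young soleus and Cldn5 between sedentary aged muscles. At 0.559 to 3.40 CPM, Rbp7 in aged muscle rests on few reads. The cause of the changes below was not tested.

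Members called in young soleus numbered 1, and 0 with the rRNA term or with only the groups compared (0 to 1 leaving out a library). In aged soleus they numbered 0 (0 to 1), and between sedentary aged muscles 2, with 1 without the filter (1 to 3). Other endothelial genes called numbered 0 in aged soleus (0 to 1), 2 in young soleus (1 with the rRNA term; 1 to 3), 0 in aged plantaris (4 by DESeq2, 1 without sedentary 16 and PoWeR 12; 0 to 2) and 0 in the libraries labelled young plantaris (1 by DESeq2, 1 under that omission; 0 to 1). Between aged muscles they numbered 5 when sedentary (2 without the filter; 1 to 8) and 0 after PoWeR (2 under that omission; 0 to 4).

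All genes called in aged soleus numbered 128 (378 by DESeq2, 216 with the rRNA term, 229 with only the groups compared; 36 to 172 leaving out a library), and in young soleus 1920 (620 with the rRNA term, 358 with only the groups compared; 602 to 2545). In aged plantaris they numbered 4 (116 by DESeq2, 2 without the filter, 8 with the rRNA term, 8 under the omission, 0 with only the groups compared; 0 to 10), in the libraries labelled young plantaris 34 (222 by DESeq2, 1 with the rRNA term, 108 under the omission, 87 with only the groups compared; 1 to 227), and for age by PoWeR 0 (72 by DESeq2; 0 to 58). The rRNA term could not be fitted in the comparisons between aged muscles.

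With a replicate block, paired by number, 12 other endothelial genes and 3 members were called between sedentary aged muscles, beside 5218 of all genes. All genes called with the block numbered 10 in aged soleus and 1 in aged plantaris. The labels do not say that a number marks 1 animal. Correlations of same-numbered libraries ran from 0.043 to 0.158 between muscles, where 8 of 9 libraries matched their own number best, a hint from the data that the numbers pair the muscles, and from -0.096 to 0.060 between PoWeR and sedentary. Under the block Emcn in aged soleus was 0.156 (main -0.01) and Tie1 between trained muscles -0.012.

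Signs of tested members changed as follows, as log2 differences. Tie1 between trained muscles (0.02) was -0.00354 without the filter and -0.0024 under the omission (-0.11 to 0.15 leaving out a library). With the rRNA term Mecom in young soleus (0.03) was -0.0182 (-0.14 to 0.20), and in the libraries labelled young plantaris Cdh5 (0.09) was -0.101 (-0.022 to 0.21) and Tie1 (-0.05) 0.0545 (-0.16 to 0.056). Leaving out a library alone gave -0.16 to 0.19 for Emcn in aged soleus, -0.011 to 0.32 for Cdh5 and -0.070 to 0.21 for Egfl7 between trained muscles, -0.0072 to 0.23 for Esam between sedentary ones, -0.085 to 0.088 for Cdh5 and -0.055 to 0.095 for Esam in young soleus, -0.065 to 0.28 for Mecom in age by PoWeR, and -0.19 to 0.23 for Esam and -0.15 to 0.024 for Mecom in the libraries labelled young plantaris.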
